A study of Homo sapiens with 8 samples.

Results

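The *WNT* target genes described here are *AXIN2*, *LGR5*, *ASCL2*, *NKD1*, *MYC*, *CCND1*, *LEF1*, *TCF7*, *SP5* and *RNF43*, taken as every non-control probe whose gene name was one of these 10 symbols. They were represented by 13 of the 50599 distinct probes, and by 10 of the 34423 gene names, on one-color expression arrays. The cells were HCT116, a human colorectal cancer line whose own beta-catenin gene carries an activating mutation. CONT1 and CONT2 were stable clones carrying the miR-neg control plasmid, and TET1-KD1 and TET1-KD2 were stable clones carrying a plasmid with an artificial miRNA against *TET1*, a different one in each clone. All of these clones were selected with G418 and expressed GFP from the plasmid. Each clone was measured once untreated and once after 1 µM 5-aza-dC for 72 h, which gave 8 arrays and n = 2 clones for each condition. The titles of the arrays were followed for the treatment, because another label gives mock for all control clones and 5-aza-dC for all knockdown clones. Each line was 1 clone, so the spread within a condition is the spread between 2 clones.

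In canonical WNT signaling, a cytoplasmic destruction complex marks beta-catenin for degradation unless a WNT ligand binds its receptors. Stabilized beta-catenin enters the nucleus and acts with transcription factors of the TCF/LEF family on target genes, several of which feed back on the pathway. In the intestine this pathway maintains the stem cells of the crypt, and most colorectal cancers activate it by mutation. The drug 5-aza-dC is a nucleoside analog that traps DNA methyltransferases and lowers DNA methylation, and TET1 is an enzyme that oxidizes 5-methylcytosine.

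Each probe reads 60 bases of a transcript, and 4 of them are shown. Those of *ASCL2* and *LEF1* are given for their changes after 5-aza-dC, and that of *LGR5* because no signal was seen. The *AXIN2* probe shown did not stand for its gene. Positions are those of the array annotation on hg19. For *AXIN2* the dimmer of its probes is shown (chr17:63554388-63554447, minus strand), and for *LGR5* its only probe (chr12:71978325-71978384, plus strand). For *ASCL2* (chr11:2289989-2290018, minus strand) and *LEF1* (chr4:108968776-108968805, minus strand) the first 30 bases are given. No base is in capitals here.
AXIN2: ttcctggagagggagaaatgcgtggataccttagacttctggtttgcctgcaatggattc
LGR5: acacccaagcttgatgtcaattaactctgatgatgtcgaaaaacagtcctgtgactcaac
ASCL2: ctgctggagggacactgctggcaaacggag
LEF1: gcccaaaactgtcatcctaacgtttgtcat

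RefSeq promoter windows, from 250 bases before to 50 bases after a start site on GRCh38.p14, were at hand for 4 of the 10 genes (*LEF1*, *TCF7*, *SP5* and *RNF43*), in 6 windows. They were searched on both strands for the core TCF/LEF motifs CTTTGAT and CTTTGAA, which do not overlap each other in these windows. *SP5* held 1 match to CTTTGAT, 109 bases before its start site, and 2 matches to CTTTGAA, 148 and 84 bases before it. The other 5 windows held neither run of letters, but only 1 of them, for *RNF43*, lies at the 5′ end of its gene. The windows of *LEF1* and *TCF7* and the other of *RNF43* are at start sites 2631 to 15400 bases inside the gene, so the main promoters of *LEF1* and *TCF7* were not searched. Of all 35116 promoter windows, 2.62% held CTTTGAT and 4.43% held CTTTGAA. The 250 bases before the *SP5* start (chr2:170715087-170715336, plus strand) are shown with the matches in capitals, since this is the single window of a member that held any.
SP5: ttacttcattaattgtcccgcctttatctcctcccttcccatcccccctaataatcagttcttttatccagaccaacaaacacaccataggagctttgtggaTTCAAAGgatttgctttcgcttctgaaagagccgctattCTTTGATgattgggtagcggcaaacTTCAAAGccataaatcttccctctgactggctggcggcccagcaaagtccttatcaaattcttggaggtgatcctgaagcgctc

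The 75th percentile of raw intensity was 395.5 to 623.7 across arrays, and 29490 to 34276 spots per array were well above background. The first slide held 6 arrays, the untreated ones and those of the treated knockdown clones. CONT1 and CONT2 with 5-aza-dC were scanned 230 days later on another slide, and an effect of the slide cannot be told apart from that of the drug in them. Spike-in transcripts of medium brightness read lower on the second slide, by up to 1.00 on the log2 scale. The normalized intensity of *TET1* without treatment was 833.2 (CONT1), 859.1 (CONT2), 402.3 (TET1-KD1) and 681.6 (TET1-KD2), and with it 795.2, 799.9, 506.8 and 715.9. *TET1* was lower in both knockdown clones, but the untreated difference of -0.69 (log2, 95% interval -1.39 to 0.01) did not pass the test (limma adjusted p = 0.61). A dimmer *TET1* probe, also above background on all arrays, read 69.74, 68.5, 23.63 and 52.25 without treatment in the same order of clones. With treatment it read 80.52, 58.22, 27.22 and 30.08. The paper also reports reduced *TET1* mRNA by RT-qPCR in both knockdown clones. Of 8 epithelial markers 6 were above background on all arrays, *KRT20* on 7 and *VIL1* on 2. Of 6 fibroblast markers, *COL1A1* was above background on 8 arrays, *DCN* on 4 and *PDGFRB* on 3, while *COL1A2*, *COL3A1* and *LUM* were on none, and their summed intensity was 345.9 to 455.2 on untreated and 646.3 to 907 on treated arrays. Of 4 endothelial markers, *CDH5* and *VWF* were above background on 7 arrays, *PECAM1* on 3 and *KDR* on none, with sums of 100.7 to 119.9 and 197 to 290.6. *COL1A1*, *DCN*, *PECAM1* and *VWF* rose with the drug in the control clones, where *CDH5* fell, and *VWF* rose in the knockdown clones, although a second *VWF* probe was not called in either. The summed intensity of 5 leukocyte markers was 457.5 to 856.6 on untreated arrays and 1515 to 2536 on treated ones. *CD14*, *CD68* and *PTPRC* were above background on every array, and the part of these genes in the results below was not tested.

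After 5-aza-dC *ASCL2* was called higher in both kinds of clone, and *LEF1* and *NKD1* in the control clones. In the knockdown clones *LEF1* was called higher, with 1 treated array above background, and *MYC* was called lower. Those *LEF1* and *MYC* calls held under 9 of 21 and 7 of 22 alternatives. *TCF7* was called lower in the control clones, but on the spike-in scale its change was 0.12. Of the 9 genes that could be tested, 2 were higher and 1 was lower after 5-aza-dC in the knockdown clones, while 9.44% of all 19687 gene names tested were higher and 3.09% lower. In the control clones 3 were higher and 1 was lower, beside 20.5% and 21.3% of all gene names. The median log2 change of the 9 genes was 0.30 in knockdown and 0.62 in control clones, beside -0.06 and -0.05 over all gene names. *ASCL2* and *LEF1* were not above background on any untreated array and entered the test only through treated arrays, where they were high, so the counts of rises and these medians partly follow from the filter. Among the 7 genes above background on all arrays, none rose in the knockdown clones, and *MYC* fell. Of the same 7 genes in the control clones, *NKD1* rose and *TCF7* fell, while *MYC* was not called (limma adjusted p = 0.051). A refit without probes that were dim on any array also called *MYC* lower there (limma adjusted p = 0.042). Of the 20938 probes in that refit, 3210 were higher and 4960 lower in the control clones. In the knockdown clones 612 were higher and 579 lower. A probe was called at a Benjamini-Hochberg adjusted p below 0.05 in a limma fit over all 27286 tested probes. Bulk arrays cannot tell fewer expressing cells from less RNA per cell.

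**Figure D1:**
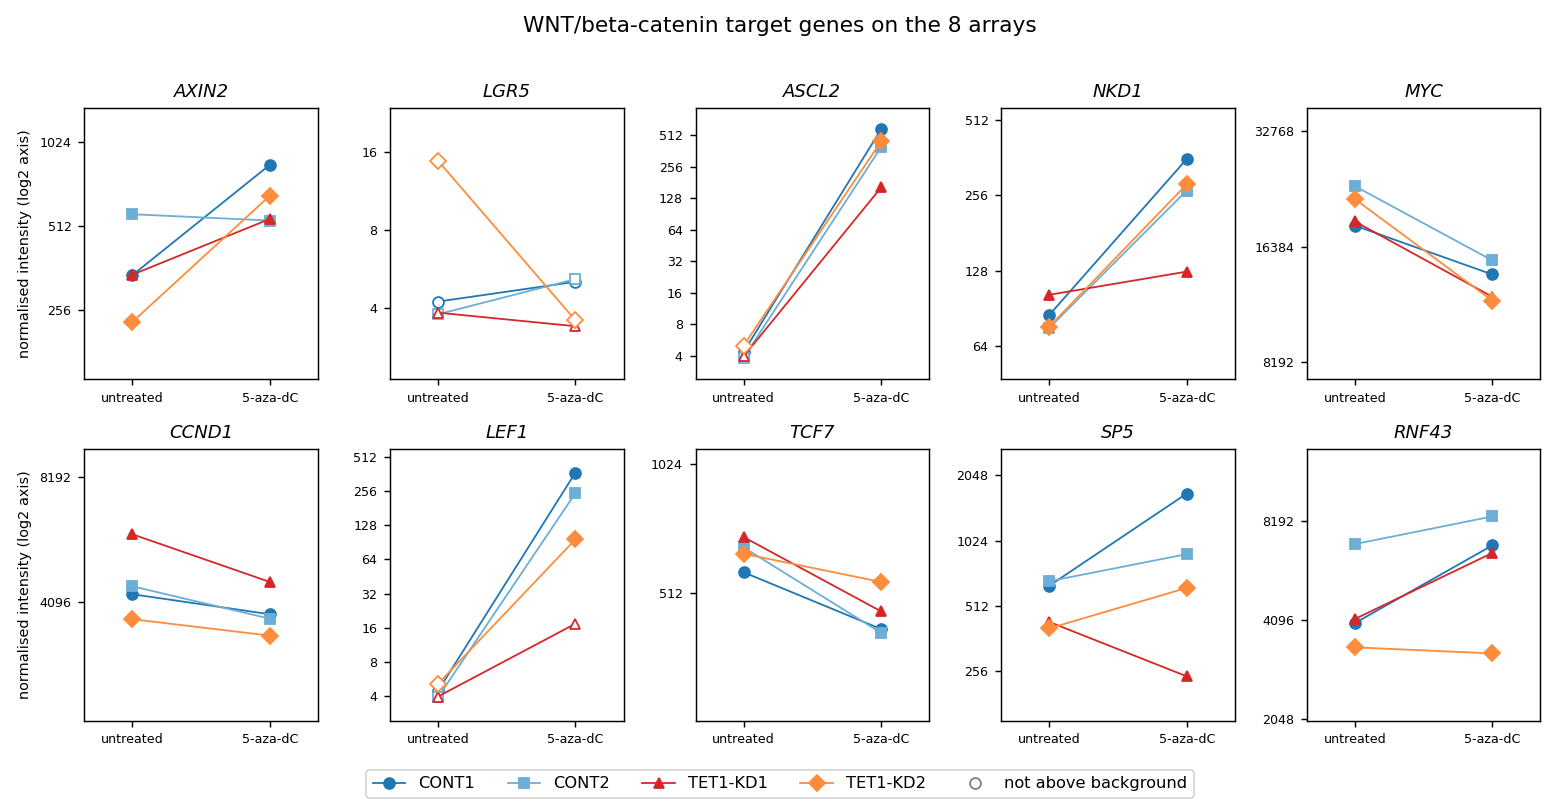
Normalized intensity (log2 axis, a separate range for each gene) of the 10 genes on the 8 arrays, untreated at the left and after 5-aza-dC at the right of each panel. A line joins the arrays of 1 clone, and open symbols are not above background. *ASCL2* rose from 3.87 to 5.04 to between 161.7 and 580.5, and *LGR5* has open symbols on all 8 arrays.

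*ASCL2* encodes a transcription factor of intestinal stem cells. Its probe read 4.39 in CONT1 and 3.87 in CONT2 without treatment, neither above background, and 580.5 and 391.1 after 5-aza-dC. It read 3.97 in TET1-KD1 and 5.04 in TET1-KD2 without treatment, again not above background, and 161.7 and 444.6 after it. All treated arrays lay above all untreated arrays, and TET1-KD1 was the lowest of the treated ones. A gene not above background has only an upper limit, taken as the mean over its arrays of the lowest log2 signal among probes well above background, or the gene's own signal if higher. Against that limit, *ASCL2* was at least 23.9-fold higher after 5-aza-dC in the control clones (adjusted p = 0.00023) and at least 12.7-fold higher in the knockdown clones (adjusted p = 0.00067). The fitted log2 changes were 6.85 (SE 0.47) and 5.91 (SE 0.47), and both depend on the level read for the dark arrays. In the knockdown clones the methods' t-test on the 4 arrays alone did not call it (adjusted p = 0.22).

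*LEF1* encodes one of the DNA-binding partners of beta-catenin. It read 4.47 in CONT1 and 3.92 in CONT2 without treatment, not above background, and 371.6 and 245.3 with 5-aza-dC. The knockdown clones read 3.99 and 5.15 without treatment, also not above background, and 17.4 in TET1-KD1 and 96.2 in TET1-KD2 after it. The TET1-KD1 value was not above background, so of the treated knockdown arrays 1 measured the gene. *LEF1* was at least 15.2-fold higher after 5-aza-dC in the control clones (log2 change 6.17, SE 0.74, adjusted p = 0.0016). In the knockdown clones the fit called a rise (log2 change 3.18, SE 0.74, adjusted p = 0.043), but no fold is given, because the untreated arrays and 1 of the treated arrays were not above background. The knockdown call held under 9 of 21 alternatives. It was lost without any 1 of the untreated arrays or of the treated control arrays (adjusted p 0.076 to 0.14), and on the first slide alone the adjusted p was 0.076.

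*TCF7* encodes another member of the TCF/LEF family. Its brighter probe read 572.3 (CONT1) and 653.8 (CONT2) without the drug, and 422.3 and 413.9 with it. It read 691.1 and 631.9 in the untreated knockdown clones, and 464.3 and 543.4 in the treated ones. On this scaling all treated arrays lay below all untreated arrays, and the share of all genes that did so was not counted. The fall of 0.55 on the log2 scale (SE 0.16) passed the test in the control clones (adjusted p = 0.035), but on the spike-in scale, which raises the median of all probes in this comparison to 0.26 from -0.08, the change was 0.12. The call was also lost without any 1 of the control arrays, treated or untreated (adjusted p 0.087 to 0.19). In the knockdown clones the change was -0.40 (95% interval -0.78 to -0.01, adjusted p = 0.17). The second *TCF7* probe gave -0.37 (95% interval -0.93 to 0.18) and -0.06 (95% interval -0.62 to 0.49), and it was not called in either kind of clone.

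*SP5* encodes a zinc-finger factor that beta-catenin induces directly, and its promoter window is the one with TCF/LEF letters shown above. Without treatment it read 633.9 (CONT1), 665.3 (CONT2), 431.5 (TET1-KD1) and 403.1 (TET1-KD2). After 5-aza-dC it read 1689, 887.1, 242.1 and 619.9 in the same order. The clones moved apart, since CONT1, CONT2 and TET1-KD2 were higher with the drug (log2 changes 1.41, 0.42 and 0.62) and TET1-KD1 was lower (-0.83). Neither mean change was called, with 0.91 (95% interval -0.26 to 2.09, adjusted p = 0.17) in the control and -0.11 (95% interval -1.28 to 1.07, adjusted p = 0.92) in the knockdown clones.

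*NKD1*, *AXIN2* and *RNF43* are feedback inhibitors of the pathway, and 1 of them was called after 5-aza-dC, in the control clones. *NKD1* encodes an inhibitor that binds Dishevelled. CONT1 and CONT2 read 85.4 and 75.8 untreated, and 358.1 and 268 after 5-aza-dC, a log2 rise of 1.94 (SE 0.39, adjusted p = 0.010, 3.85-fold). The knockdown clones read 102.8 and 76.7 without treatment and 127.2 and 283.9 with it. TET1-KD1 changed by 0.31 and TET1-KD2 by 1.89 on the log2 scale, and the mean of 1.10 (95% interval 0.15 to 2.05) was not called (adjusted p = 0.13). Without the treated TET1-KD1 array, which leaves 1 treated knockdown array, the change was 1.68 and was called (adjusted p = 0.024). In the control clones the *NKD1* call was lost without the untreated CONT2 array (adjusted p = 0.057) or the treated CONT1 array (adjusted p = 0.055).

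*AXIN2* encodes a scaffold of the destruction complex and is a widely used readout of beta-catenin activity. Its brighter probe read 341.3 (CONT1), 564 (CONT2), 342.8 (TET1-KD1) and 232.1 (TET1-KD2) without treatment, and 847.2, 535.4, 542.4 and 656.8 with it. CONT2 did not increase (-0.07 on the log2 scale), while CONT1, TET1-KD1 and TET1-KD2 were higher by 1.31, 0.66 and 1.50. Neither mean was called, at 0.62 (95% interval -0.24 to 1.48, adjusted p = 0.20) in the control clones and 1.08 (95% interval 0.22 to 1.94, adjusted p = 0.11) in the knockdown clones. The probe printed above read lowest in untreated TET1-KD2 (96.7) and highest in treated CONT1 (440.4). It gave 0.96 in either kind of clone and was not called, with adjusted p = 0.099 in the control and 0.18 in the knockdown clones. On the spike-in scale the brighter probe was called in the control clones, with a change of 1.16 (adjusted p = 0.041).

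*RNF43* encodes a ubiquitin ligase that removes Frizzled receptors from the cell surface. Control clones read 4011 and 6974 untreated and 6911 and 8465 treated, and knockdown clones read 4127 and 3384 untreated and 6555 and 3242 treated. The groups overlapped in both comparisons, and the changes of 0.53 (95% interval -0.45 to 1.51) and 0.30 (95% interval -0.68 to 1.28) were not called.

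*MYC* and *CCND1* are growth regulators among the targets. *MYC*, which encodes a transcription factor of ribosome production and proliferation, read 18610 in CONT1 and 23580 in CONT2 without treatment, and 13880 and 15100 with 5-aza-dC. The knockdown clones read 19080 and 21810 without treatment, and 12140 and 11860 with it. *MYC* was lower with the drug in 4 of 4 clones, and the treated and untreated arrays did not overlap. How many of all genes did the same was not counted. The fall of 0.77 on the log2 scale (SE 0.18, 1.7-fold lower) passed the test in the knockdown clones (adjusted p = 0.041), and the change of -0.53 (SE 0.18) in the control clones missed it (adjusted p = 0.051). With the clone as a block the control change was called too (adjusted p = 0.039). The knockdown call held under 7 of 22 alternatives. It was lost whichever of the 8 arrays was left out (adjusted p 0.061 to 0.16), and on the first slide alone the adjusted p was 0.072. A second *MYC* probe was not above background on any array and was not tested.

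*CCND1* encodes cyclin D1, which activates CDK4 and CDK6 in the cell cycle. Control clones read 4287 and 4479 untreated, and 3837 and 3744 treated. The knockdown clones read 5973 in TET1-KD1 and 3733 in TET1-KD2 without treatment, and 4588 and 3409 with it. The changes of -0.21 (95% interval -0.85 to 0.43) and -0.26 (95% interval -0.89 to 0.38) were not called. The *LGR5* probe, for a receptor of R-spondins that marks intestinal stem cells, read 3.41 to 14.9 and was not above background on any array, so it was not tested.

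**Figure D2:**
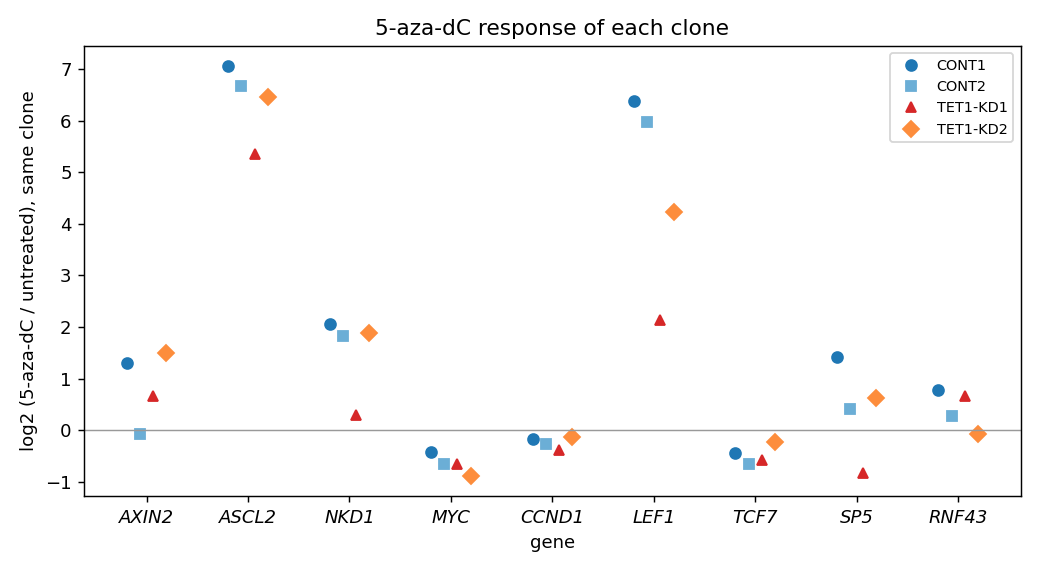
Response of each clone to 5-aza-dC, as the treated minus the untreated log2 intensity of the same clone, for the 9 tested genes. *ASCL2* and *LEF1* stand at the top with 5.35 to 7.05 and 2.13 to 6.38. TET1-KD1 is the lowest clone for *ASCL2*, *LEF1*, *NKD1*, *SP5* and *CCND1*. CONT2 is the lowest for *AXIN2* and *TCF7*, and TET1-KD2 for *MYC* and *RNF43*.

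The effect of *TET1* knockdown itself was compared in untreated cells, on 1 slide. None of the 9 genes was called, and 0.0203% of all gene names were, with 2 probes higher and 2 lower in the limma fit, while 2253 probes had an unadjusted p below 0.05. Every member had an unadjusted p above that value. The differences between knockdown and control clones ranged from -0.64 for *SP5* to 0.14 for *NKD1*, with a median of 0.11 beside 0.01 over all gene names. *SP5* was lower in both knockdown clones than in both control clones, but its interval ran from -1.81 to 0.53 (adjusted p = 0.70). The *AXIN2* difference was -0.64 (95% interval -1.50 to 0.22) and that of *MYC* was -0.04 (95% interval -0.46 to 0.39).

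After 5-aza-dC, 1 of the 9 genes differed between the kinds of clone, beside 18.4% of all gene names. *LEF1* was called lower in the knockdown clones, with a fitted log2 difference of -2.88 (95% interval -4.67 to -1.10, adjusted p = 0.043). The size of this difference depends on the level read for treated TET1-KD1, which was not above background. *LEF1* entered the test only through the treated control arrays, where it was high, so this direction partly follows from the filter. The treated knockdown values of *LEF1* lay below both treated control values, which were read on the other slide. That call held under 9 of 18 alternatives, and was lost without any 1 of the untreated arrays or of the treated control arrays (adjusted p 0.065 to 0.16). *SP5* differed by -1.66 (95% interval -2.83 to -0.49, adjusted p = 0.061), and *TCF7* by 0.26 (95% interval -0.12 to 0.65, adjusted p = 0.29). *SP5* was called lower under 4 of 19 alternatives. Among them were normexp background correction (limma adjusted p = 0.048) and the fit of only probes above background on all arrays (limma adjusted p = 0.044). The median difference of the 9 genes, *LEF1* included, was -0.70, beside -0.01 over all gene names. The treated arrays of the kinds of clone lie on different slides, so this difference and slide cannot be told apart. Without the treated TET1-KD2 array the fitted differences were -4.11 for *LEF1*, -2.34 for *SP5*, -1.56 for *ASCL2* and -1.28 for *NKD1*. Those of *CCND1* and *TCF7* were above 0. The treated knockdown cells were then 1 array, assumed to vary like the other conditions, and that array did not measure *LEF1*.

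The difference in response between the kinds of clone was tested as an interaction. No member was called, and 5.27% of all gene names were. The fitted difference farthest from 0 was that of *LEF1*, -3.00 on the log2 scale (95% interval -5.52 to -0.47, adjusted p = 0.15), with both knockdown clones (2.13 and 4.22) below both control clones (6.38 and 5.97). Since *LEF1* entered the test only through the treated control arrays, where it was high, this direction partly follows from the filter. *ASCL2* differed by -0.95 (95% interval -2.57 to 0.68), *SP5* by -1.02 (95% interval -2.68 to 0.64) and *NKD1* by -0.85 (95% interval -2.19 to 0.50). *AXIN2* differed by 0.46 (95% interval -0.75 to 1.68). Without the treated TET1-KD2 array the *LEF1* difference was called (adjusted p = 0.036), but that call rests on the single treated TET1-KD1 array, which was not above background, and takes its spread from the other conditions.

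**Figure D3:**
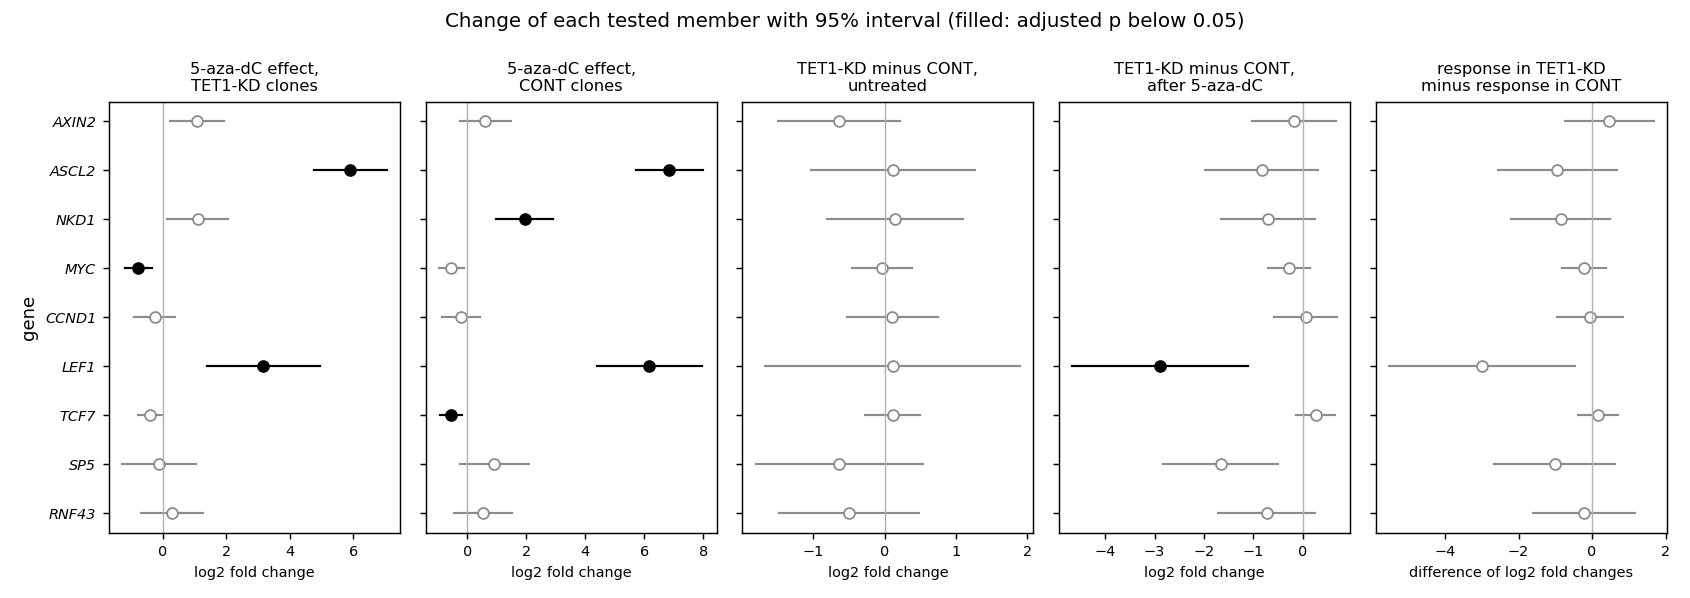
Log2 fold change of the 9 tested genes, with 95% intervals from limma, in the 4 comparisons of conditions and, at the right, the difference in response between the kinds of clone. Each panel has its own x axis, and filled black points have an adjusted p below 0.05. The filled points are *ASCL2*, *LEF1* and *MYC* in the knockdown clones, *ASCL2*, *LEF1*, *NKD1* and *TCF7* in the control clones, and *LEF1* after 5-aza-dC.

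Other genes of the pathway were counted in 8 lists to set the targets beside their ligands, receptors and regulators. Over all gene names tested, 9.44% rose and 3.09% fell in the knockdown clones, and 20.5% and 21.3% in the control clones. Whether any list departed from these shares was not tested. The 6 tested secreted inhibitors, which bind WNT ligands or their co-receptors, held 5 that rose in the control clones, 2 that rose in the knockdown clones and none that fell. Of these 6, *SFRP1*, *DKK3*, *DKK4* and *WIF1* were above background only on treated arrays and could be tested only because they were high there, so the lack of falls among them follows from the filter. *FRZB* and *DKK1* were above background on all arrays, and *FRZB* rose in the control clones (0.97, adjusted p = 0.011). The other 4 listed inhibitors, *SFRP2*, *SFRP4*, *SFRP5* and *DKK2*, were not tested. *SFRP1*, which binds WNT ligands, read 5.81 and 5.25 in the untreated and 176.7 and 127 in the treated control clones, and was at least 7.52-fold higher (adjusted p = 0.00027). It was at least 4.63-fold higher in the knockdown clones (adjusted p = 0.00078). *DKK3* was at least 2.42-fold and 2.28-fold higher (adjusted p = 0.0065 and 0.027). *WIF1* was at least 2.02-fold higher in the control clones (adjusted p = 0.0016) and was not called in the knockdown clones (1.27, 95% interval 0.39 to 2.15), and its difference in response was not called (adjusted p = 0.10).

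Of 18 tested WNT and R-spondin ligands and their export genes, 3 rose in the knockdown clones (*WNT5B*, *WNT11* and *RSPO4*). The same ones and *WNT1* rose in the control clones, where *RSPO3* fell. *WNT5B* and *WNT1* were above background only on treated arrays, and *WNT11* and *RSPO4* on all 8. *WNT5B* was at least 4.33-fold higher in the control clones (adjusted p = 0.0071) and at least 4.01-fold higher in the knockdown clones (adjusted p = 0.015). *WNT11* rose by 2.54 (SE 0.63, adjusted p = 0.021) and 2.64 (SE 0.63, adjusted p = 0.047) on the log2 scale. Of 18 receptors and Dishevelled genes, 1 fell in the knockdown clones, the co-receptor *LRP5* (-0.70, adjusted p = 0.036). In the control clones 3 rose and 5 fell, beside 20.5% and 21.3% of all gene names. *LRP5* (-1.35, adjusted p = 0.0013) and *FZD6* (-1.21, adjusted p = 0.0057) had the largest falls. On the spike-in scale 5 receptor genes rose and 1 fell in the control clones, where 7734 of all probes rose and 3382 fell.

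The 13 destruction-complex genes, beta-catenin included, held no call in the knockdown clones. In the control clones *BTRC*, which recruits beta-catenin to a ubiquitin ligase, fell by 0.91 (adjusted p = 0.0085), and *CSNK1D* fell by 0.71 (adjusted p = 0.012), but *BTRC* was not called on the spike-in scale (adjusted p = 0.39). The brighter *CTNNB1* probe, for beta-catenin, read 8932 to 9692 on untreated and 9241 to 10150 on treated arrays and was not called, while a second probe was called lower in the control clones (-0.54, adjusted p = 0.038). Of 14 nuclear partners, 1 fell in the knockdown clones and 2 rose and 4 fell in the control clones, where *TCF7L2*, the main TCF factor of the gut epithelium, changed by -1.28 (adjusted p = 0.0032). On the spike-in scale 4 nuclear partners rose and 2 fell in the control clones, where 7734 of all probes rose and 3382 fell.

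Of 17 other reported WNT targets, 1 rose in the knockdown clones and 2 rose and 2 fell in the control clones. *MSX1*, which encodes a homeobox factor, was higher in all clones, with 2482 to 3828 on untreated and 9084 to 12080 on treated arrays. Its log2 rise was 1.66 (SE 0.28, adjusted p = 0.0050) in the control and 1.76 (SE 0.28, adjusted p = 0.010) in the knockdown clones. In the control clones *MMP7*, above background on 7 arrays, fell by 3.47 (SE 1.04, adjusted p = 0.039) and *SOX4* by 1.13 (SE 0.32, adjusted p = 0.031). Neither fall was called on the spike-in scale (adjusted p = 0.060 and 0.15). *SOX9* rose in the control clones by 0.91 (adjusted p = 0.010). Of the 10 genes around cyclin D, *CDK4* fell in both kinds of clone (-0.76 and -0.92, adjusted p = 0.013 and 0.018), and so did *E2F1* (-0.55 and -0.79, adjusted p = 0.027 and 0.020), although on the spike-in scale the *E2F1* change in the control clones was 0.00. Of 15 genes around MYC, *CAD*, an enzyme of pyrimidine synthesis, fell in both (-0.71 and -0.79, adjusted p = 0.011 and 0.021), 3 rose in the control clones, and *MXD4* fell there by its brighter probe while its second probe read higher.

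**Figure D4:**
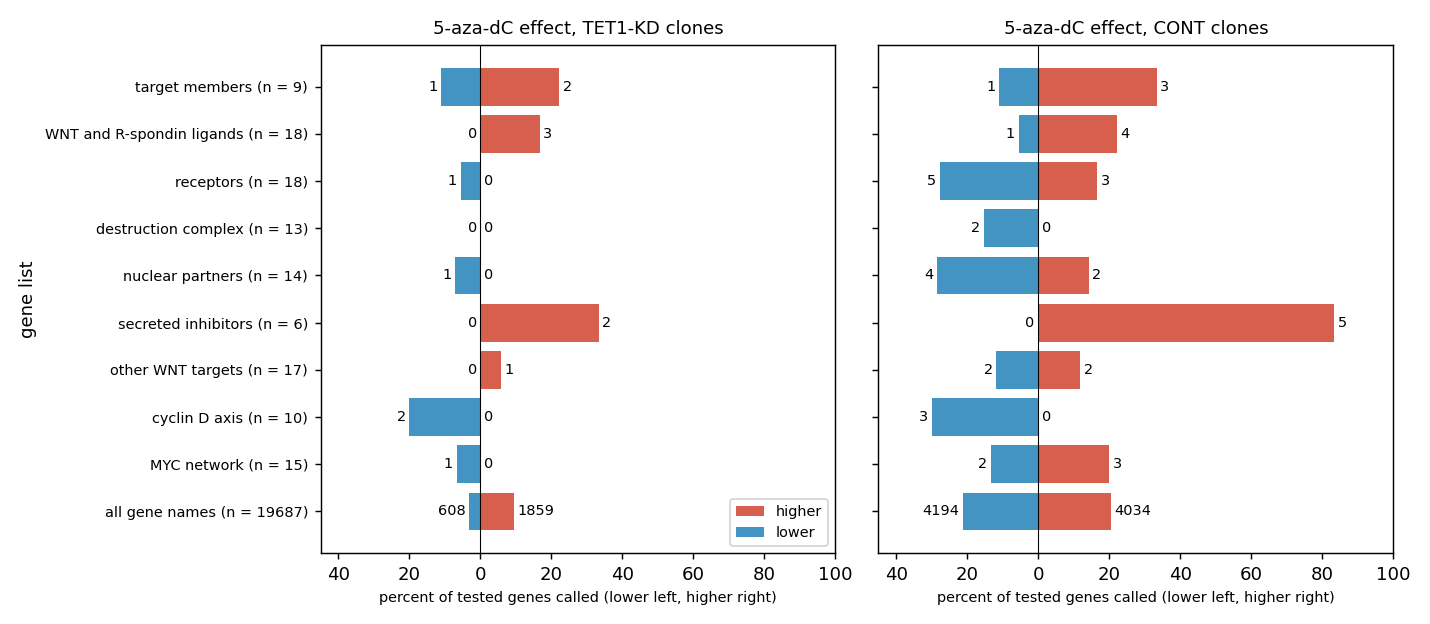
Percent of the tested genes of each list called higher (right) and lower (left) after 5-aza-dC in the knockdown clones and in the control clones, with the number of genes at the end of each bar and all gene names at the bottom. The 9 targets held 2 and 3 rises, and the 6 secreted inhibitors 2 and 5, of which *FRZB* alone was above background without treatment.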

How the data were processed

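Total RNA of 4 HCT116 clones, each with and without 5-aza-dC, was hybridized to 8 one-color SurePrint G3 arrays. The authors deposited spot intensity values written by Agilent Feature Extraction 10.7, background-subtracted but not scaled between arrays, and they analyzed them in GeneSpring GX with t tests and Benjamini-Hochberg correction. The deposited value table holds the same intensities, rounded. Probe names and positions are those of the deposited files, on hg19.

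Here processed intensities were scaled until all arrays shared the same 75th percentile, the geometric mean over arrays, then floored at 1 and put on a log2 scale. Spots with outlier flags were dropped before spots of a probe were averaged. A probe counted as above background with at least 0.5 of its spots, and was tested when above background on both arrays of a condition. The brightest tested probe stood for a gene, other probes being given where they disagreed. Changes given for genes of other lists were mainly taken from the 4 or fewer of a list with the largest called change in a comparison. Tests used limma 3.58.1 in R 4.3.3 on all 8 arrays with 4 condition means. Arrays of the same clone deviated together (correlation 0.198 in control and 0.476 in knockdown clones), and the same clone pairs its untreated and treated array. On simulated arrays of 27286 probes, 57% of changes of 2 on the log2 scale were recovered for the knockdown comparison and 61% for the control comparison. Of changes of 1, 21.5% and 17% were recovered, and 4.27% and 3.7% of the calls were false. The simulated noise was independent between arrays, without the shared deviation of a clone or an effect of the slide. The number of arrays limits the precision. Alternatives were another background correction, normalization, dim-probe filter or variance model, spike-in scaling, a probe GC trend (loess, span 0.5), the clone as a block, the deposited value table, leaving out each array and, chosen after seeing the data, a minimum change of 2-fold. The members and lists were chosen with earlier results of these data known. Motifs were counted with Python 3.11.15, and plots were drawn with matplotlib 3.10.9.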

Additional observations from a re-analysis of the deposited data

Results flagged for a closer look

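No *WNT* target gene described above had a called difference in response between the kinds of clone. Of the other listed genes, 3 had one. They were 1 of 10 tested genes around cyclin D, 1 of 15 around MYC and 1 of 14 nuclear partners, beside 5.27% of all gene names. None was called among 18 ligand and export genes, 18 receptor genes, 13 destruction-complex genes, 6 secreted inhibitors or 17 other targets. All were measured with the treated control arrays on a different slide, so slide and condition cannot be told apart. *CDKN1A*, an inhibitor of cyclin-dependent kinases, read 1267 and 1104 untreated and 434.8 and 458.4 treated in control clones, and 1105 and 1174 untreated and 1893 and 1392 treated in knockdown clones. Its responses differed by 1.92 on the log2 scale (SE 0.27, limma adjusted p = 0.019), and the call held under 13 of 19 alternatives (adjusted p 0.014 to 0.095).

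*MXD4*, a MAX partner that opposes MYC, had responses of -1.75 and -1.19 in the control clones and 0.63 and 0.32 in the knockdown clones, a difference of 1.94 (adjusted p = 0.017), called under 12 of 19 alternatives (adjusted p 0.014 to 0.18). Its second probe moved the other way in the control clones, from 173.8 and 135.3 to 268 and 282.8, and the mean of its probes was not called (adjusted p = 0.18). *TLE3*, a corepressor of TCF factors, had responses of -1.09 and -1.19 in the control clones and -0.08 and -0.17 in the knockdown clones, a difference of 1.02 (adjusted p = 0.041), called under 6 of 19 alternatives (adjusted p 0.031 to 0.25). With the clone as a block *TLE3* was not called (adjusted p = 0.056), nor without any 1 of the 8 arrays. Its difference was 0.45 on the spike-in scale (adjusted p = 0.25), 0.65 with the GC trend subtracted (adjusted p = 0.13) and 0.62 with normexp (adjusted p = 0.095). On the spike-in scale and with the GC trend subtracted *CDKN1A* was not called either (1.29 and 1.37, adjusted p = 0.057 and 0.062), nor was *MXD4* (1.37 and 1.40, adjusted p = 0.075 and 0.056).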

How the results depend on the processing

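Of 899 values of single genes recomputed under the alternatives, 834 kept their call or lack of one, 49 lost a call and 15 gained one. The 1 that reversed was the *TCF7* change in the control clones, 0.12 on the spike-in scale. Most values belonged to changes not called in the main fit, so these totals say little about the calls. In the control clones the *ASCL2* and *LEF1* calls held under 20 of 20 alternatives, *NKD1* under 18 of 21 and *TCF7* under 11 of 21. In the knockdown clones *ASCL2* held under 20 of 21, *LEF1* under 9 of 21 and *MYC* under 7 of 22. The *LEF1* call between treated clones held under 9 of 18. In the knockdown clones 3 genes were called after 5-aza-dC. That count was 1 with quantile normalization, with no filter on dim probes, with only probes above background on all arrays, with only the 4 arrays compared and on the 6 arrays of the first slide, and 0 with the methods' t-test, which called 2 in the control clones in place of 4. After 5-aza-dC the 1 gene that differed between the kinds of clone became 2 with normexp and on the spike-in scale, and 0 with no dim-probe filter, with only the 4 arrays compared and with the methods' t-test. Leaving out 1 array gave 1 to 3 genes in the knockdown clones, 2 to 4 in the control clones, 0 to 4 between treated clones, and 0 to 1 for the difference in response. A condition left with 1 array was assumed to vary like the others. With the replicate block, the clone, 3 and 5 genes were called in the knockdown and control clones, *MYC* (-0.53, adjusted p = 0.039) being the one gained, and no other member's call changed. Over all probes, 2429 were called higher and 789 lower in the knockdown clones, against 2040 and 1131 with normexp, 2088 and 1110 with quantile normalization, 1988 and 273 with no dim-probe filter, 612 and 579 above background on all arrays, 1614 and 73 on the 4 arrays alone, and 2279 and 254 with a 2-fold minimum. For the control clones 5233 and 6168 became 7734 and 3382 on the spike-in scale, 2151 and 2011 with the methods' t-test, and 3753 and 3708 with a 2-fold minimum. Between treated clones 3236 and 1885 became 2155 and 2643 with normexp, 2141 and 3348 on the spike-in scale, 1060 and 413 on the 4 arrays alone, 4 and 0 with the methods' t-test, 1946 and 1129 genes with probes averaged, and 2065 and 940 with a 2-fold minimum. The difference in response, 1097 and 425, became 739 and 884 on the spike-in scale, 433 and 396 with normexp, 487 and 228 with no filter, 749 and 487 above background on all arrays, 626 and 217 genes with probes averaged, and 566 and 292 with the GC trend subtracted. Without the untreated CONT1 array it was 33 and 14. Why these counts moved was not tested. Quantile normalization moved the median of all probes to -0.12 in the knockdown and -0.15 in the control clones. The methods' t-test called no probe in the knockdown clones. Signal near background limits *ASCL2* and *LEF1* in untreated cells, and *LEF1* in treated TET1-KD1, to a bound, and *LGR5* to no value.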
